A study of Mus musculus with 14 samples.

Results

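The T-cell genes described here were Cd3d, Cd3e, Cd3g, Trac, Cd4, Cd8a, Lck, Tcf7 and Cd2. These 9 genes were picked by symbol from the 19465 features that the feature tables of all 14 tissue sections share (32589 features in the tables of purchased mice) by a rule that names them and sets no threshold on a measured value. Levels are CPM, the counts of a gene per 1000000 UMIs (tagged, counted molecules), over the in-tissue spots of a section with at least 1000 detected genes. Wild-type C57BL/6 mice that had been purchased gave 1 section each of adult spleen, bone marrow at postnatal day 8 (P8), bone marrow at 89 weeks that was cryosectioned without decalcification, bone marrow of a 6-month mouse decalcified for 5 days in 0.5 M EDTA, and fetal liver at embryonic days 13.5 (E13.5) and 14.5 (E14.5). Mating of C1qa heterozygous mice gave the other 8 sections, from wild-type and C1qa knockout offspring. There were 2 sections per genotype of E14.5 fetal liver, numbered 2 and 4 after the dam, and 2 per genotype of spleen, numbered 1 and 2, given as 3 months old in the sample labels and as 2 months old in the study's methods. The study mapped these organs to find the cells around developing red blood cells, and the cross asked what C1qa, a subunit of the complement protein C1q, changes there.

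T cells recognize antigen through a receptor whose antigen-binding chains are paired with the CD3 proteins. Cd3d, Cd3e and Cd3g encode the signaling partners of the receptor, and Trac encodes the constant region of its alpha chain. Cd4 and Cd8a encode the coreceptors of helper and cytotoxic T cells, although Cd4 is also read in some macrophages and dendritic cells and Cd8a in a dendritic cell subset. Lck is the kinase that binds to the coreceptors and starts the signal, Tcf7 encodes the transcription factor TCF-1 of naive and memory T cells, and Cd2 encodes an adhesion receptor of T and natural killer cells. In the spleen, T cells gather in sheaths around the central arterioles of the white pulp, beside B-cell follicles and apart from the red pulp, where red blood cells are filtered. In the mouse, T cells mature in the thymus and not in the fetal liver, which sends progenitors there, and adult bone marrow holds recirculating memory T cells.

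Depth differed widely. In-tissue totals ran from 449883 to 56182915 UMIs, the median per passing spot ran from 2293.5 to 75701 UMIs, and 15 to 2320 spots passed. The EDTA-decalcified marrow stood apart with 15 of 814 spots passing, and wild-type spleen 2 was the shallowest spleen, with 81.9% of its spots passing. C1qa was at 218 and 269 CPM in the wild-type spleens and at 95.9 and 25.8 CPM in the wild-type fetal livers, and each knockout section held 1 or 2 counts, as its label says. Tissue labels were read against marker lists. B-cell genes summed to between 5487 and 7941 CPM in the spleens, neutrophil genes to between 5777 and 28174 CPM in the marrows, and hepatocyte genes to between 7434 and 115554 CPM in the fetal livers. Fetal livers 4 held other tissue too, since hepatocyte genes reached 0.5% of UMIs in 30.1% of the spots of wild-type section 4 and 63.5% of those of knockout section 4, against 94.4 and 96.7% in sections 2. Exocrine pancreas genes filled at least 0.5% of UMIs in 116 spots of wild-type spleen 2, 37 of knockout spleen 1 and 48 of knockout spleen 2, and in 0 spots of the other spleens.

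The 3 CD3 genes are neighbors on mouse chromosome 9, and the T-cell genes were read together in the same spots, so the sequence before their starts is printed with that of Lck, whose product acts on the same complex. Sequences are from the RefSeq promoter table of GRCm38.p6, which matched 6 of the 9 genes; Trac, Cd4 and Cd2 had no entry. Cd3d lies at chr9:44981769-44987052 on the plus strand and Cd3g at chr9:44969572-44980431 on the minus strand, so that the genes point away from each other, with transcript starts 1355 bases apart. Cd3e lies at chr9:44998735-45009663 on the minus strand, with its transcript start 27825 bases from that of Cd3d, and Lck at chr4:129548344-129573641 on the minus strand. Capitals mark matches, on either strand, to 4 motifs of factors known from T cells: CTTTGA (TCF/LEF, the family of Tcf7), GGAAGT (ETS), CAGGTG (an E-box) and TGTGGT (RUNX). All sequences run 5′ to 3′ along the gene, and end where the annotated gene begins.
Cd3d, chr9:44981536-44981768: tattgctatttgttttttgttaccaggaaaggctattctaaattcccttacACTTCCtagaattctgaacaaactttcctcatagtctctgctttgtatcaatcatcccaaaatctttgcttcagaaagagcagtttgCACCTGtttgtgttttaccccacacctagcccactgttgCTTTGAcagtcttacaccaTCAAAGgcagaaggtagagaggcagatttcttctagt
Cd3e, chr9:45009664-45009861: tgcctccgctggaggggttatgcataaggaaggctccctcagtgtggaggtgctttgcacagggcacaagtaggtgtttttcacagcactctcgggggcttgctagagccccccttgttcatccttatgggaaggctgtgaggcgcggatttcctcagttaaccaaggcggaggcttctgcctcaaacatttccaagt
Cd3g, chr9:44980432-44980681: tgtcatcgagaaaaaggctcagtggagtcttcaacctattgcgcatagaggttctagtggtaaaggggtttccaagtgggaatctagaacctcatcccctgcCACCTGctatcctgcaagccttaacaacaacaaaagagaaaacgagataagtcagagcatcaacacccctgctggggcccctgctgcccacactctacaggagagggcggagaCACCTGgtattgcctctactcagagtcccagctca
Lck, chr4:129573642-129573891: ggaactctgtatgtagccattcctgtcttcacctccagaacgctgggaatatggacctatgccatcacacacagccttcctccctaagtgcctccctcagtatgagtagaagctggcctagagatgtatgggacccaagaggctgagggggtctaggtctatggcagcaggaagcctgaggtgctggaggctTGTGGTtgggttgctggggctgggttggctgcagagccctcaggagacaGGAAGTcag

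Over the 250 bases before a transcript start, Cd3d held 2 TCF/LEF matches, 73 and 54 bases before it, beside 1 ETS and 1 E-box match. The Cd3g stretch held 2 E-box matches, 148 and 35 bases before the start, and the outermost Lck start had an ETS match at 9 and a RUNX match at 58 bases. The ETS match of Cd3e, 18 bases before its transcript start, falls inside the annotated gene and is not in the printed stretch. The same letters are common: of 32851 promoters in the table, 13.8% held the TCF/LEF letters, 19.7% the ETS, 17.2% the E-box and 14.0% the RUNX letters. A match describes the letters and not a bound site.

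All 9 genes were read in all 5 spleens, and 8 of them had a lower CPM in every other section. Tcf7 was higher in the P8 marrow than in the 4 spleens of the cross. In the EDTA-decalcified marrow the upper 95% Poisson limit was 194 CPM for Cd3d and Trac, 150 CPM for Cd3g and 99.3 CPM for Cd4 and Cd8a. These limits lie above the lowest spleen, so for these genes that section cannot be called lower. Summed over the 9 genes, the spleens stood at 1591 CPM (purchased), 892 and 2037 CPM (wild types 1 and 2) and 1464 and 1716 CPM (knockouts 1 and 2). The marrows stood at 41.4 CPM at P8, 130 CPM at 89 weeks and 134.5 CPM after EDTA, the last from 5 counts (95% Poisson limits 43.7 to 314). The purchased fetal livers stood at 9.16 CPM (E13.5) and 7.64 CPM (E14.5), the wild types of the cross at 13.6 and 20.1 CPM and the knockouts at 15.8 and 37.2 CPM. No section of another tissue reached the lowest spleen. In order, neighbors among the spleens differed by less than the spread between replicates except at the step down to wild-type spleen 1. Against the pooled SD between replicate sections of the cross (0.642 on the log2 scale, 4 groups of n = 2), the gap from the lowest spleen to the marrows was larger, as was that from the 89-week to the P8 marrow. The P8 marrow did not differ from the highest fetal liver by more than that spread, nor did neighbors in the order among the other fetal livers, apart from the step below knockout fetal liver 4. The SD is that of single sections, some of them compared here, and a difference between sections varies more, so these comparisons are descriptions. A CPM in a tissue section falls with fewer T cells and with less RNA per T cell alike, and these cannot be told apart. Limits on counts cover counting error only. Purchased and cross sections also differ in mice, feature tables and software, so no test was made between them.

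**Figure D1:**
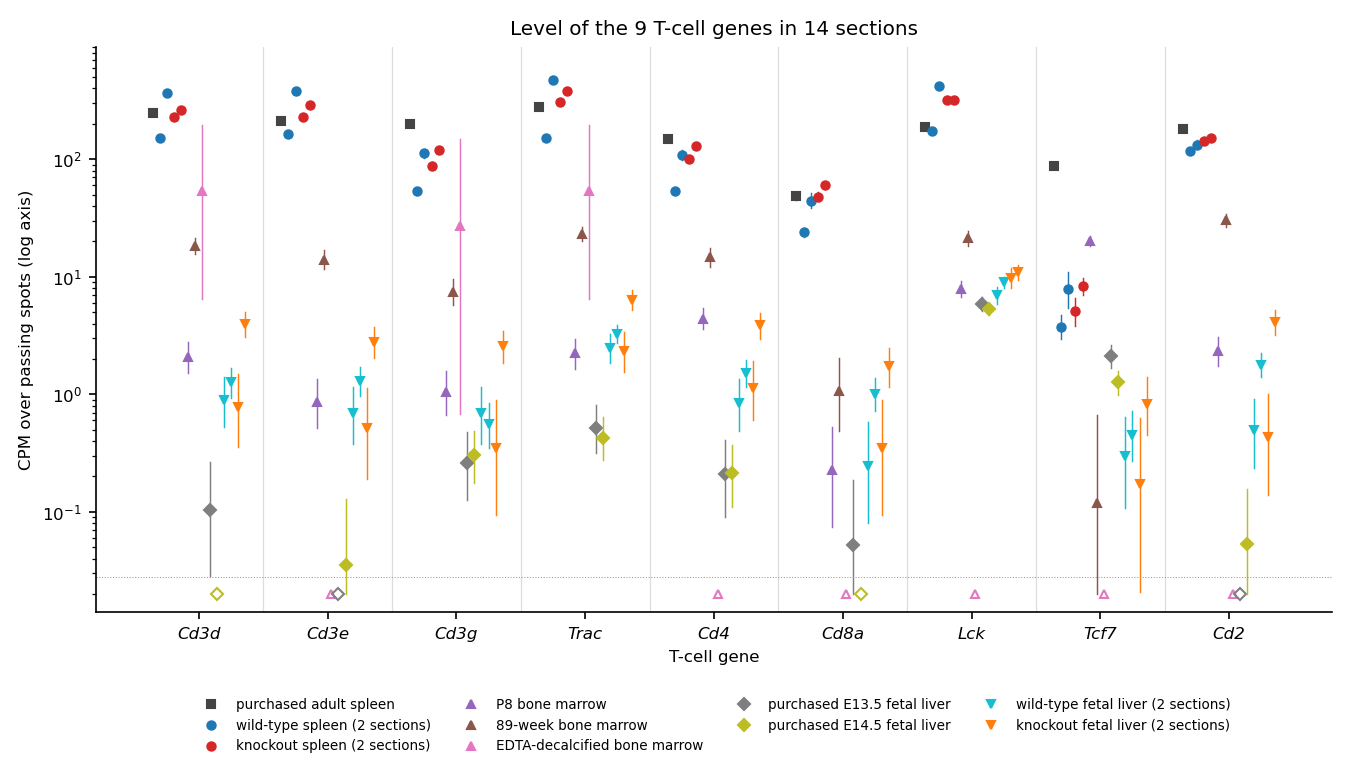
Level of each T-cell gene (CPM over passing spots, log axis) in the 14 sections. Points are sections, bars are exact 95% Poisson limits, and open symbols under the dotted line are sections with 0 counts. For 8 of the 9 genes the points of all 5 spleens lie above those of every other section. Tcf7 is the exception, with the P8 marrow at 20.2 CPM above the 4 spleens of the cross. The bars of the EDTA-decalcified marrow reach above the lowest spleen for Cd3d, Cd3g and Trac, and open symbols carry no bar.

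The receptor genes differed more between the wild-type spleens than between the knockouts. Trac was at 278 CPM in the purchased spleen, at 152 and 467 CPM in the wild types and at 305 and 376.6 CPM in the knockouts. Cd3e was at 211, 163, 380, 229 and 289 CPM in the same order of sections. Cd3d was at 249, 151, 365, 228 and 264 CPM. In all 3 genes wild-type spleen 1 was the lowest and wild-type spleen 2 the highest, so the knockouts lay between the wild types. Cd3g was at 197 CPM in the purchased spleen, 53.3 and 112 CPM in the wild types and 88.3 and 119 CPM in the knockouts, so that the purchased spleen was the highest and the genotypes overlapped. Cd3g gave 0.793 counts per Cd3d count in the purchased spleen against 0.307 to 0.450 in the cross, where the mice, the feature table and the software differ too and cannot be told apart.

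The coreceptors did not order the spleens in the same way. Cd4 was at 149 CPM in the purchased spleen, 53.2 and 109 CPM in the wild types and 101 and 129 CPM in the knockouts. Cd8a was at 48.6, 23.9, 44.3, 47.9 and 59.8 CPM in the same order. Wild-type spleen 1 was the lowest for both, and for Cd8a both knockouts lay above both wild types. How many of all genes separate the genotypes by level was not counted, so such separations, here and below, are descriptions only. The ratio of Cd4 to Cd8a counts was 2.23 and 2.47 in the wild types, 2.11 and 2.16 in the knockouts and 3.07 in the purchased spleen. Since probes differ in efficiency, the ratio compares sections and does not count helper against cytotoxic T cells.

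Lck, the kinase of the coreceptors, was at 188 CPM in the purchased spleen, 173 and 419 CPM in the wild types and 317 and 316 CPM in the knockouts. Cd2, the adhesion receptor, was at 182 CPM in the purchased spleen, 118 and 133 CPM in the wild types and 142 and 153 CPM in the knockouts. For Cd2 both knockouts lay above both wild types. Tcf7 was the gene with the widest split between the purchased and the cross spleens: 86.9 CPM in the purchased spleen (1329 counts) against 3.76 and 7.81 CPM in the wild types and 5.10 and 8.33 CPM in the knockouts. Mice, feature table and software differ here too and cannot be told apart. Within the feature table of the purchased mice, the spleen was above the P8 marrow (20.2 CPM). The 33 to 152 counts of Tcf7 in the cross spleens make it the least precise of the genes there. Set against the 11 B-cell genes, the T-cell genes gave 13.9 counts per 100 B-cell counts in wild-type spleen 1, 37.1 in wild-type spleen 2, 18.4 and 25.3 in the knockouts and 20.1 in the purchased spleen.

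In the marrows the genes separated. At 89 weeks Cd3d (18.3 CPM), Cd3e (14.0 CPM), Cd3g (7.47 CPM), Trac (23.2 CPM), Cd4 (14.6 CPM), Lck (21.2 CPM) and Cd2 (30.2 CPM) were all read, while Cd8a had 9 counts and Tcf7 had 1. At P8 the receptor genes were sparse, with Cd3d at 2.09 CPM, Cd3e at 0.865 CPM, Cd3g at 1.05 CPM and Trac at 2.23 CPM. Tcf7 (20.2 CPM) and Lck (7.92 CPM) made up 68.1% of the P8 counts of the 9 genes, against 16.4% at 89 weeks and 17.3 to 22.0% in the spleens. Thus the gene with the most counts in the P8 marrow was the gene with the fewest in the 89-week marrow, and both are in the same feature table. The EDTA-decalcified marrow held 2 counts of Cd3d, 1 of Cd3g and 2 of Trac and 0 of the other 6 genes, each of which may have been as high as 80.7 CPM (3 counts) without being read.

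In the fetal livers Lck was the leading gene by counts in every section. Lck was at 5.90 CPM at E13.5 and 5.34 CPM in the purchased E14.5 section, at 6.98 and 8.94 CPM in the wild types of the cross and at 9.78 and 10.9 CPM in the knockouts. Both knockouts were above both wild types, again as a description, and the 95% limits of wild-type 4 (8.03 to 9.92) and knockout 2 (8.06 to 11.8) overlapped. Lck and Tcf7 made up 87.5 and 86.5% of the counts in the purchased fetal livers, where Cd3d, Cd3e, Cd8a and Cd2 had from 0 to 4 counts. Cd3e and Cd2 had 0 counts at E13.5, which allows up to 0.0783 CPM, and Cd3d and Cd8a had 0 counts in the purchased E14.5 section, which allows up to 0.0534 CPM. In the cross, Trac was at 2.47 and 3.26 CPM in the wild types and at 2.34 and 6.36 CPM in the knockouts. Cd3d was at 0.891, 1.26, 0.779 and 3.98 CPM in the same order. Knockout fetal liver 4 was the highest of the 6 fetal livers for 8 of the 9 genes, and the purchased E13.5 section for Tcf7 (2.11 CPM).

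Within the spleens the T-cell genes lay in patches. Clustering was measured by Moran's I, which correlates each spot with the spots that touch it on the hexagonal array, on log2 of counts scaled to 6000 per spot plus 1. For the sum of the 9 genes it was 0.404 in the purchased spleen, 0.431 and 0.383 in the wild types and 0.513 and 0.650 in the knockouts. The median over all genes detected in at least 50 spots was 0.0162, 0.0116, 0.00483, 0.00737 and 0.0137 in the same sections. The median over the members was 0.201, 0.148, 0.147, 0.246 and 0.420. Moran's I rises with depth, so each spot was also thinned to 2000 UMIs: the sum then gave 0.198, 0.152, 0.359, 0.295 and 0.410. Thinning left out 554 spots of wild-type spleen 2, 44 of the purchased spleen and at most 4 of each other spleen. Spots are not replicates, and no p was computed over them.

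**Figure D2:**
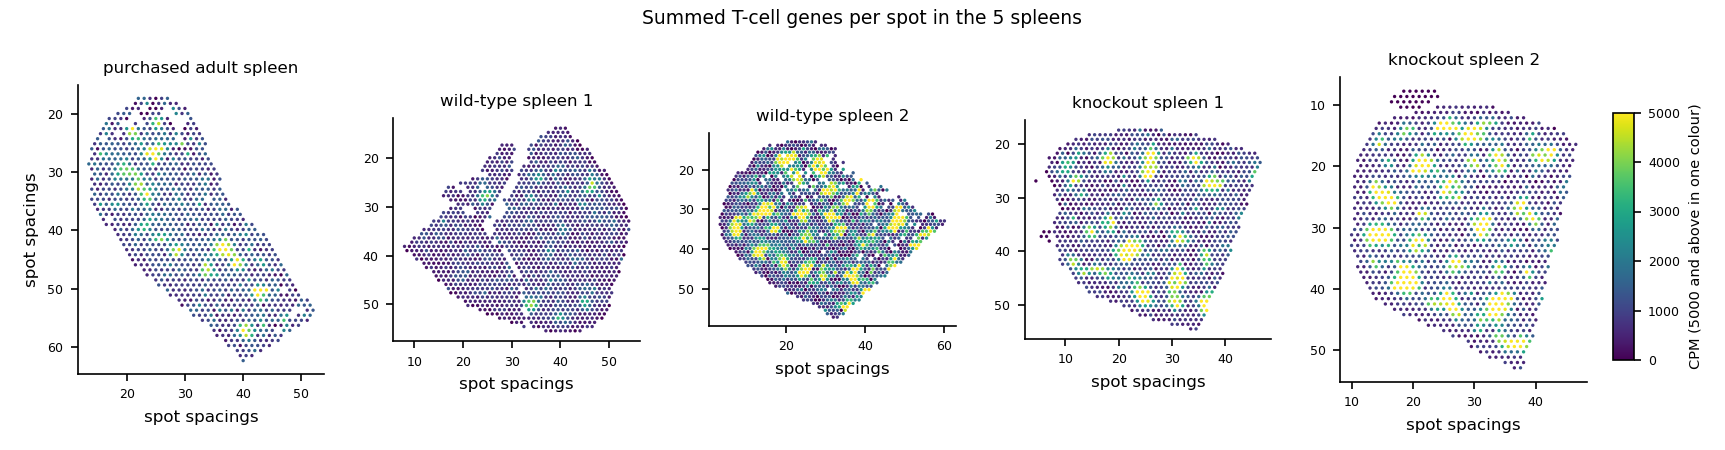
Summed level of the 9 T-cell genes in each passing spot (CPM, color; values of 5000 and above share a color) on the 5 spleens, drawn to scale in units of the spot spacing. Bright spots adjoin each other in each section; they are faint in wild-type spleen 1, where the sum over the section was 892 CPM.

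The receptor genes were the most clustered and Tcf7 and Cd8a among the least. Moran's I of Trac was 0.277 in the purchased spleen, 0.278 and 0.285 in the wild types and 0.439 and 0.566 in the knockouts. For Cd8a it was 0.0736, 0.0378, 0.0193, 0.148 and 0.267 in the same order, and for Cd2 it was 0.129, 0.115, 0.0571, 0.0653 and 0.173. Tcf7 gave 0.150 in the purchased spleen, where it had the most counts, and −0.00457, 0.00911 and 0.0359 in wild-type 1 and the knockouts; wild-type spleen 2 had too few spots with Tcf7. Moran's I also depends on how many counts a gene has, so these values do not order the genes by place alone.

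Different members predicted each other across the boundary between spots. The level of a member in a spot correlated with that of another member in the touching spots with r above 0 for every pair. There were 36 pairs in each of 4 spleens and 28 in wild-type spleen 2 (where Tcf7 could not be used). How many pairs of other genes have r above 0 was not counted, and the counts were not thinned here. The median r was 0.334 in the purchased spleen, 0.216 and 0.209 in the wild types and 0.359 and 0.514 in the knockouts. The highest pair was Trac with Lck or Cd3e in each spleen, up to 0.753 for Cd3e and Trac in knockout spleen 2. The lowest pair always held Cd8a, down to 0.0393 with Tcf7 in wild-type spleen 1. Within the same spot the median r over the pairs was 0.249, 0.139, 0.139, 0.276 and 0.447; the neighbor value is a mean over several spots, so the scales differ.

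The 10% of spots with the highest T-cell share formed joined patches. Among the spots touching a high spot, 48.2% were high themselves in the purchased spleen, 38.3 and 40.6% in the wild types and 53.5 and 48.3% in the knockouts, against 10.0 to 10.1% of all spots. These spots held 25.8 to 35.6% of the T-cell counts of their sections and 3.65 to 12.1% of the B-cell counts. Between 11 and 20 patches of 3 or more spots were found per section, and the largest held 15 to 22 spots. Because the high spots were chosen on the T-cell counts, their T-cell share is a description.

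A measure that does not reuse its own gene was had by starting from Trac alone. Spots were ranked by their share of Trac, and the other 8 genes were read by the number of steps from the nearest spot in the top 10%. The other 8 genes fell from 2898 CPM at step 0 to 878 CPM at step 5 in the purchased spleen, from 1382 to 601 and from 3556 to 696 CPM in the wild types, and from 3184 to 659 and from 3884 to 777 CPM in the knockouts. The fall was steepest over the first 2 steps, and beyond step 3 the level was not lower at each further step in wild-type spleen 1 and the knockouts. B-cell genes ran the other way at first: in knockout spleen 1 they rose from 3634 CPM at step 0 to 9461 CPM at step 2, and they were highest at step 2 in the other spleens too, apart from wild-type spleen 1, where step 1 held 7478 CPM against 6890 CPM at step 0. Erythroid genes climbed outward from 531 CPM at step 0 to 16486 CPM at step 4 in knockout spleen 1, and from 19768 to 87316 CPM (step 3) in wild-type spleen 1. In each spleen the erythroid level at step 3 was above that at step 0, and it was higher at every step in wild-type spleen 1 than in the others.

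**Figure D3:**
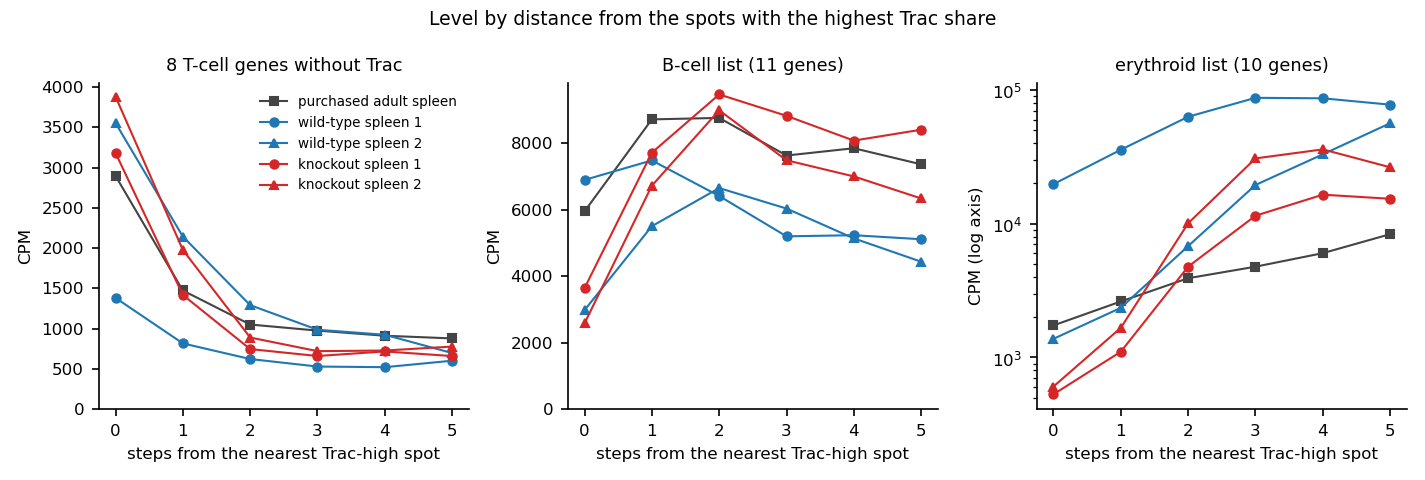
CPM by number of steps from the nearest spot in the top 10% for Trac, for the 8 other T-cell genes, the B-cell list and the erythroid list (log axis); lines are the 5 spleens. T-cell genes are highest at step 0, B-cell genes peak at step 1 or 2, and erythroid genes are lowest at step 0; the outermost steps do not follow a single direction in every spleen.

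Across spots of a section, the summed T-cell genes correlated with the other lists as follows. With the 18 other genes of the T-cell receptor complex and its signaling, such as the beta-chain genes Trbc1 and Trbc2 and the adaptor gene Lat, r was between 0.546 and 0.825 over the 5 spleens (1012 to 1646 spots each). With erythroid genes it was between −0.547 and −0.263, and with red-pulp macrophage genes between −0.305 and −0.236. Dendritic cell genes gave 0.0877 to 0.295 and natural killer genes −0.0769 to 0.00589. All values come from shared libraries, and a larger share of one cell type lowers that of another within a spot, so these values are descriptions and not tests. T-zone genes were negative (−0.165 to −0.0948), but the cross tables lack Ccl19, Ccl21a and Ccl21b, the chemokines that define that zone, leaving Pdpn, Il7 and Cxcl12. In the purchased spleen 3 of the 6 listed genes had 0 counts, so its value does not rest on the whole list either.

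The correlation with B-cell genes differed in sign between spleens. It was −0.0114 in the purchased spleen, 0.442 in wild-type spleen 1, −0.286 in wild-type spleen 2 and −0.398 and −0.174 in the knockouts; thinned to 2000 UMIs, wild-type spleen 1 remained the only positive value (0.218). The median spot of wild-type spleen 1 gave 4.28% of its UMIs to erythroid genes, against 0.122 to 0.309% in the others. Each section was therefore split at its own median erythroid share, a step added after these values were seen. In the erythroid-poor spots T- and B-cell genes correlated at −0.495 in the purchased spleen, −0.473 and −0.573 in the wild types and −0.667 and −0.190 in the knockouts. In the erythroid-rich spots they correlated at 0.280, 0.515, 0.0873, 0.100 and 0.232. Within each part the sign was the same in all 5 spleens.

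The genes that followed the T-cell sum most closely were sought among 9765 genes detected in at least 50 spots of each spleen, by the median r over the 5 spleens. They were Trbc2 (0.531), Trbc1 (0.484), Thy1 (0.465), Tpt1 (0.462), Ms4a4b (0.458), Traj22 (0.443), Lat (0.433), Traj23 (0.422), Traj13 (0.422) and Traj20 (0.419). Trbc1 and Trbc2 encode the constant region of the receptor beta chain, and the Traj segments are joined to Trac in the same transcript, so their counts are not independent of it. Thy1 is a surface protein of mouse T cells, and Tpt1 is read in nearly all cells. For Trbc2 the single spleens gave 0.516, 0.531, 0.501, 0.715 and 0.826.

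Outside the spleen the genes showed little clustering, with a few exceptions. At 89 weeks Moran's I of the sum was 0.0336 and that of the 7 members with enough spots lay between −0.0280 and 0.0327. The genes that followed the sum there were Ccl5 (r = 0.227), a chemokine of memory T cells and natural killer cells, Tmsb10 (0.206), Trbc2 (0.198), Trbc1 (0.197) and H2-K1 (0.188), over 932 spots. At P8 the sum gave 0.179, Tcf7 gave 0.207 and Lck 0.165, while Cd4 gave 0.0120; the median of all genes in that section was 0.0448 and their 90th percentile 0.236. With thinning to 2000 UMIs the sum gave 0.0334 or less in both marrows.

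At P8 Lck lay where erythroid and B-cell genes were read. Of its 174 counts, 82 (47.1%) were in the 10% of spots highest for erythroid genes, which held 21.5% of UMIs, and 72 were in the 10% highest for B-cell genes, which held 15.2%. Tcf7 did not share the first of these places, with 43 of 445 counts (9.66%) in the spots highest for erythroid genes. Mmp13, a collagenase of bone and cartilage, was among the first 5 genes most like the sum (r = 0.281). Correlations across sparse counts describe these single sections only.

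In the fetal livers the sum of the genes gave Moran's I between −0.0103 and 0.0773, and Lck between −0.00708 and 0.0391. Trac gave 0.138 in wild-type fetal liver 4 and 0.0895 in knockout fetal liver 4, the sections where it was detected in enough spots. Over all genes the median and the 90th percentile were 0.0786 and 0.445 in the first and 0.0362 and 0.260 in the second, so Trac lay within the range of other genes. The 10% of spots highest for Actg2, Tagln, Acta2 and Eln, genes of smooth muscle and elastic fibers chosen because they were among the genes most like Trac in the purchased and wild-type sections, held 10 of 20 Trac counts at E13.5 and 17 of 24 in the purchased E14.5 section. The same set held 15 of 50 and 35 of 129 in the wild types and 6 of 27 and 14 of 107 in the knockouts, with 6.35 to 9.46% of UMIs. It held 2 of 14, 1 of 19, 3 of 46, 7 of 123, 0 of 19 and 12 of 157 counts of the 3 CD3 genes in the same order of sections. Since the choice of these 4 genes used Trac itself, its shares in the purchased and wild-type sections are a description and support no difference from the CD3 genes. In knockout fetal liver 4 the share of Trac was 13.1%, beside 9.05% of UMIs. Of the genes most like the sum in a fetal liver, Tagln (0.201) in wild-type section 4, Eln (0.0951) in wild-type section 2 and Ctrb1 (0.308), a digestive enzyme of the pancreas, in knockout section 4 mark other tissues.

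Whether the genotypes of the spleens differed was tested gene by gene over the sections with edgeR's quasi-likelihood test on summed counts, with adjusted p (Benjamini-Hochberg over 18895 genes) under 0.05 as the threshold. Cd8a, Cd4 and Cd2 rose in the knockouts, and the 6 other members did not pass, although all 9 had a fold change above 0. These fold changes use scaling factors per section (TMM), which CPM does not, so they can differ from the levels. Mean CPM was lower in the knockouts than in the wild types for Cd3d (246 against 258) and Cd3e (259 against 271). For the other members it was higher. Over all genes 13.8% were called higher and 6.79% lower (20.6% either way), beside which 3 of 9 members were called higher and 0 lower. The levels given above show both knockouts above both wild types for Cd8a and Cd2, and an overlap for Cd4, where knockout 1 (101 CPM) lay below wild type 2 (109 CPM). As the share of all genes that separate in this way was not counted, the separation does not add to the calls. Cd8a differed by a log2 fold change, knockout over wild type, of 0.99 (SE 0.23, edgeR adjusted p = 0.00632). Cd4 differed by 0.81 (SE 0.24, edgeR adjusted p = 0.02497) and Cd2 by 0.50 (SE 0.17, edgeR adjusted p = 0.0401).

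**Figure D4:**
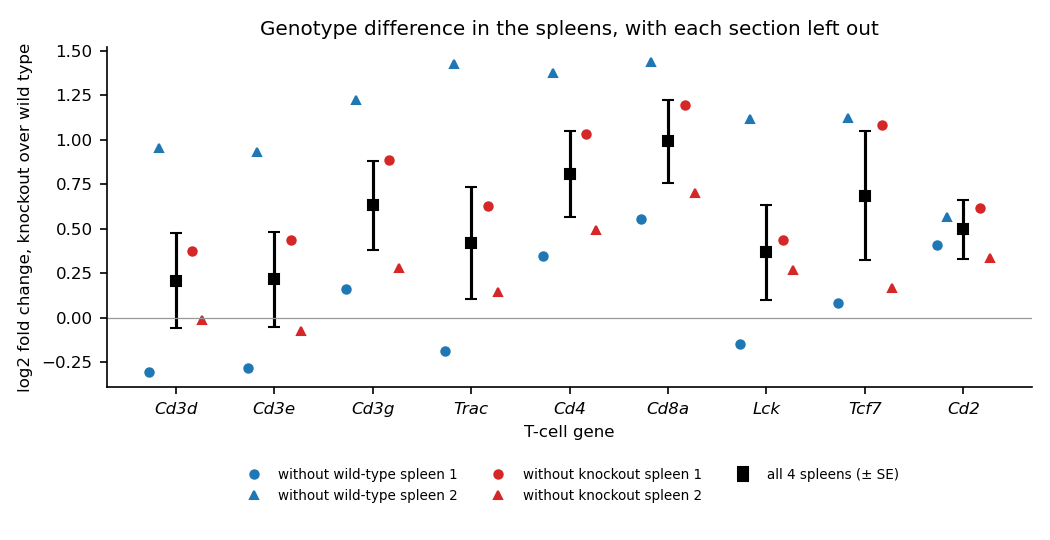
log2 fold change, knockout over wild type, of each T-cell gene in the spleens (black squares, edgeR, ± SE, 2 sections per genotype) and the value with each section left out (colored points). Without wild-type spleen 1 the values lie between −0.31 and 0.55, and without wild-type spleen 2 between 0.57 and 1.43.

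The receptor genes had smaller or less certain differences. Cd3g stood at 0.63 (SE 0.25, edgeR adjusted p = 0.0735), Trac at 0.42 (SE 0.32), Cd3d at 0.21 (SE 0.27) and Cd3e at 0.21 (SE 0.27), and the edgeR adjusted p of the last 3 lay between 0.315 and 0.558. Lck stood at 0.37 (SE 0.27, edgeR adjusted p = 0.295) and Tcf7 at 0.69 (SE 0.36, edgeR adjusted p = 0.161). The median of the members was 0.50 and that of all genes −0.08. These calls rest on single sections: 0 of the 9 members passed without wild-type spleen 1 (11.2% of all genes higher) or without knockout spleen 2 (0.802%), Cd3g, Cd4, Cd8a and Tcf7 passed without knockout spleen 1 (11.4%), and all but Tcf7 passed without wild-type spleen 2 (16%). Upper-quartile scaling moved the median of all genes to −0.37 and turned the share of calls that were higher from 67.0 to 21.4%. Cd8a and Cd4 passed under this scaling and Cd2 did not, beside 6.34% of genes higher, and Cd3d and Cd3e changed sign (−0.08 each). Scaling factors shift all genes of a section alike. The members' median was therefore bound to stay at nearly the same distance above that of all genes (0.57, against 0.58). DESeq2 called Cd2 alone, beside 12.3% of genes higher, which were 86.2% of its calls.

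Lists of other cells moved between the same sections. Erythroid genes fell in the knockouts (9 of 10 lower, summed level 56766 and 15357 CPM in the wild types against 6970 and 15269 CPM), as did 9 of 9 neutrophil genes (668 and 598 against 75.6 and 132.5 CPM). All 9 exocrine pancreas genes tested rose (69.5 and 1050.0 against 4141 and 28188 CPM), as did 5 of 11 B-cell genes (6412 and 5487 against 7941 and 6788 CPM), 6 of 9 dendritic cell genes and 3 of 7 plasma cell genes. Red-pulp macrophage genes gave 4 higher and 1 lower of 9, and hepatocyte genes 1 lower of 9. In the spleens of the cross, 0 measured genes of these lists were at 0. Without the pancreas spots Cd8a, Cd4 and Cd2 passed again (edgeR adjusted p = 0.00595, 0.0253 and 0.0445), beside 13.2% of genes higher. Over spots rich in B-cell genes Cd8a alone passed (0.81, SE 0.21, edgeR adjusted p = 0.0130), beside 9.36% of genes higher. The part of the erythroid and neutrophil shares in these differences was not tested.

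Other T-cell lists are given beside the 13.8% of all genes called higher and the 6.79% called lower. Of the 18 other genes of the receptor complex and its signaling, 7 rose and 0 fell, with a median log2 fold change of 0.64. Prkcq, the kinase PKC-theta of the T-cell synapse, was at 25.3 and 41.6 CPM in the wild types and 64.0 and 90.4 CPM in the knockouts, a change of 1.53 (SE 0.23, edgeR adjusted p = 0.000242), and it passed with each section left out. Themis (1.10, SE 0.21), a regulator of receptor signal strength, and Fyb (0.79, SE 0.21), an adaptor of T-cell adhesion, also rose, and each lost the call in 1 of the 4 fits that left out a section. Of 14 tested surface and recirculation genes 6 rose and 0 fell. Among them Il7r, the receptor for the survival factor IL-7, was at 2.21 and 2.13 CPM in the wild types and 7.93 and 23.0 CPM in the knockouts (3.13, SE 0.43, edgeR adjusted p = 0.000107), and Ms4a6b was at 30.1 and 39.5 CPM against 65.1 and 102 CPM (1.57, SE 0.23, edgeR adjusted p = 0.000156). Both passed with each section left out, and Cd96 (2.14, SE 0.35), an adhesion receptor of T and natural killer cells, and Gimap4 (0.72, SE 0.21) rose as well but lost the call in 1 and 2 of those fits.

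The lists that follow had shares called higher nearer to the 13.8% of all genes. Of 12 tested T-cell transcription factors, Lef1, the partner of TCF-1 (0.92, SE 0.23), and Runx3, a factor of cytotoxic T cells (0.62, SE 0.18), rose and 0 fell, and the list median was 0.06; with upper-quartile scaling 1 of the 12 rose and 3 fell. Of 13 regulatory, helper and effector genes 3 rose and 0 fell: Icos, a costimulatory receptor (2.13, SE 0.42), Ikzf2, a factor of regulatory T cells (0.70, SE 0.22), and the chemokine Ccl5 (0.74, SE 0.24). Lef1, Runx3, Icos, Ikzf2 and Ccl5 each lost the call in at least 1 fit that left out a section. None of the 3 measured T-zone genes and none of the 10 thymocyte and thymic epithelium genes passed edgeR's adjusted threshold. Natural killer genes gave 1 call of 8 (Klrd1, higher) and innate lymphoid genes 1 of 9, Il7r again.

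As a single value per section, the summed level did not separate the genotypes. The log2 CPM of the sum was 10.40 ± 0.84 in the wild types and 10.63 ± 0.16 in the knockouts (SD, n = 2 each), a difference of 0.23 (two-sided exact permutation p = 1.00). The wild types lay on both sides of the knockouts. With 2 sections per genotype, the smallest p that this test can give is 0.333, so it cannot pass 0.05. The difference ran from −0.36 without wild-type spleen 1 to 0.83 without wild-type spleen 2.

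Clustering separated them in the full counts. Moran's I of the sum was 0.431 and 0.383 in the wild types and 0.513 and 0.650 in the knockouts (means 0.407 ± 0.0336 and 0.582 ± 0.0972, SD, n = 2 each), a difference of 0.174 (exact permutation p = 0.333, the smallest possible). The groups did not overlap, and with each section left out in turn the difference ran from 0.106 to 0.243. After thinning to 2000 UMIs the groups overlapped (0.152 and 0.359 against 0.295 and 0.410), and the difference of 0.0970 (exact permutation p = 0.667) ran from −0.00625 to 0.200 with each section left out. Wild-type spleen 2, with the fewest UMIs per spot, rose from the lowest of the 4 to the second in order. Gene by gene, 7 of the 8 members with enough spots (Tcf7 lacked them, Cd2 was the exception) had a higher Moran's I in both knockouts than in both wild types, beside 18.9% of 10687 genes. After thinning to 2000 UMIs 4 of 8 did (Cd3e, Cd4, Cd8a and Lck), beside 16.5% of genes. After thinning to 1000 UMIs 1 of 7 did (Cd4), beside 16.3% of genes, so at that depth the members' share was near the background.

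**Figure D5:**
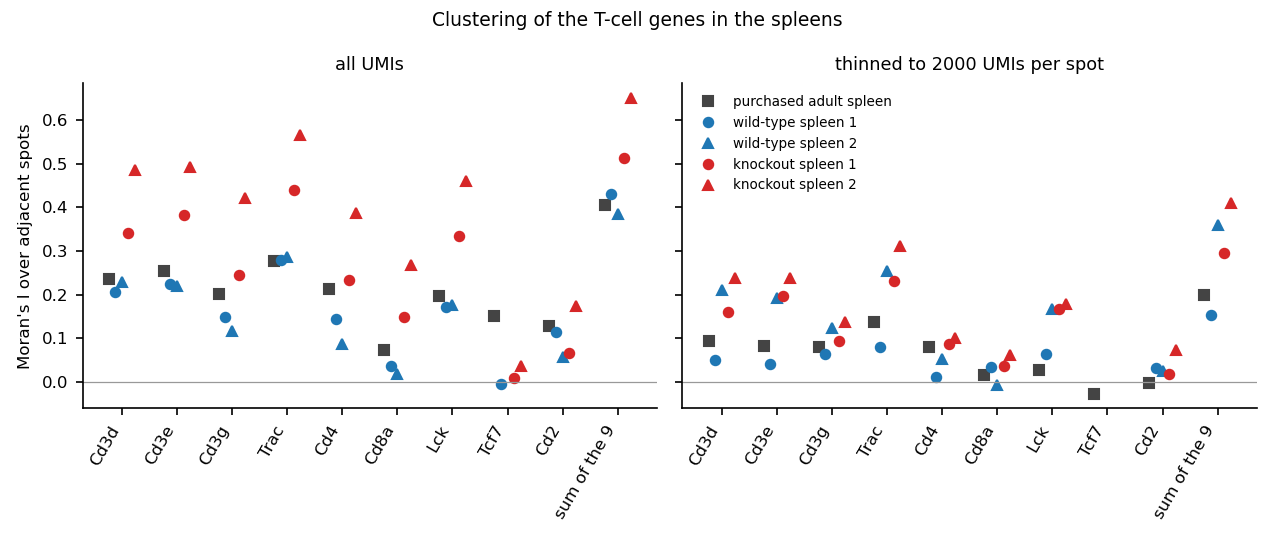
Moran's I of each T-cell gene and of their sum in the 5 spleens, from all UMIs (left) and after thinning each spot to 2000 UMIs (right); points are sections. On the left both knockouts lie above both wild types for 7 genes and the sum, and on the right wild-type spleen 2 lies between the knockouts for Cd3d, Cd3g, Trac and the sum.

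In the fetal livers 0 of 18986 genes passed edgeR's adjusted threshold (background 0% called; 138 at an unadjusted p under 0.05, 12 by DESeq2), and so 0 of the 8 members tested passed; Tcf7 did not pass the filter on low counts. The fold changes of the members lay between 0.21 (Lck, SE 0.57) and 0.75 (Cd4, SE 0.66), with a median of 0.54 against −0.00 for all genes. Sections 2 and 4 come from different litters, and their numbers pair the genotypes. With the litter as a block 157 genes passed, and again 0 of the 8 members, with Cd4 at 0.72 (SE 0.81), Trac at 0.26 (SE 0.55) and Lck at 0.17 (SE 0.38). The dispersion was 0.263 in the fetal livers without the block and 0.0743 with it, against 0.0245 in the spleens. In counts simulated without the block at a dispersion of 0.25, 0 of 100 genes changed by 1 on the log2 scale and 2 of 100 changed by 2 were recovered in the fetal livers; recovery with the block was not simulated.

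The summed level was 4.05 ± 0.40 in the wild types and 4.60 ± 0.87 in the knockouts (log2 CPM, SD, n = 2 each), a difference of 0.55 (exact permutation p = 0.667). Within litters it was 0.22 in litter 2 and 0.89 in litter 4, and knockout 4 was the highest section; without it the difference was −0.06. Fetal livers 4 were those with other tissue, and over hepatocyte spots alone the difference was 0.66, with the sections at 13.8 and 16.3 CPM in the wild types and 15.9 and 35.1 CPM in the knockouts. Moran's I of the sum differed by −0.0350 (exact permutation p = 0.667). Of the members, Lck alone had enough spots in all 4 sections, and its genotypes overlapped, beside 2.42% of genes higher and 12.3% lower in both knockouts. Over the 4 exact permutation tests of level and clustering in the spleens and fetal livers, adjusted p ran from 0.889 to 1.00.

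Whether the genotype difference itself differed between the tissues was tested as an interaction in a fit of all 8 sections of the cross. 0 of 19180 genes passed edgeR's adjusted threshold (background 0% called; 2018 at an unadjusted p under 0.05, 8 by DESeq2), and 0 of the 9 members did, with a lowest edgeR adjusted p of 0.750 (Cd3d, 0.54, SE 0.74). With a litter term 1409 genes passed and again 0 of the 9 members. Over 36 relabelings of the sections within tissues, the difference in the summed level gave 0.32 (fetal liver minus spleen, permutation p = 0.722) and that in Moran's I gave −0.209 (permutation p = 0.111; thinned, −0.0934, permutation p = 0.556). The calls of Cd8a, Cd4 and Cd2 in the spleen were thus not shown to differ from the fetal liver values.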

How the data were processed

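Gene expression was measured on 14 formalin-fixed mouse tissue sections with the probe-based Visium assay, in which each spot of a slide captures RNA from a small region that can hold several cells. The authors deposited raw UMI counts per gene and spot, made with Space Ranger on mm10 per the submitters' processing notes; the matrix headers name Cell Ranger 4 (4 purchased sections) and spaceranger 2.1.1, 3.1.2 and 4.0.1, and tables of the cross hold in-tissue spots only. Spots with fewer than 1000 detected genes were dropped, as the study's methods do. Counts of the remaining spots were summed per section (14 sections in 10 groups by label). Genotypes were compared with edgeR 4.0.16 (TMM, filterByExpr, quasi-likelihood test) in R 4.3.3, with DESeq2 1.42.0 as an alternative, and with exact permutation tests of single values. edgeR and DESeq2 set a difference against the spread between 2 sections per genotype, estimated in part from all genes. The permutation tests rank a difference among the relabelings of the sections. Fetal liver numbers mark the dam, and the same-numbered sections deviated together (r = 0.652 over 18986 genes), so the litter was tried as a block. Moran's I used touching spots, counts scaled to 6000 and a pseudocount of 1, for genes in at least 50 spots. No 2 sections of a group were duplicates (lowest chi-square per degree of freedom 21.8). In simulated spleen counts at a dispersion like the measured one, 59 of 100 genes changed by 1 and 100 of 100 changed by 2 on the log2 scale were recovered.

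The 9 members, the 17 gene lists and the tests were chosen with earlier results of these data known. Named genes are the members, at most 4 genes per other list with the smallest adjusted p under 0.05 in the spleen comparison, the 10 genes with the highest median r with the summed members over the spleens, and marker genes of another tissue among the first 5 correlates in a marrow or fetal liver. Smooth-muscle genes, the first 5 correlates in the 89-week marrow, the split by erythroid share and thinning to 1000 UMIs were chosen after values were seen. Alternatives were other scaling, filters, spot sets, thinning, each section left out, the replicate block and a joint fit. Results on some other genes are not reported here.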

Additional observations from a re-analysis of the deposited data

Results flagged for a closer look

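The purchased sections' tables also hold spots outside the tissue, which no comparison used, and T-cell gene counts were found there above the 3-count limit in each. There were 9382 counts off tissue in the purchased adult spleen, or 1357 CPM against 1590 CPM in tissue, and 2.37 counts per spot against 23.5. The P8 marrow held 397 counts off tissue (38.1 CPM against 41.5) and the 89-week marrow 1121 (134 CPM against 130). The E13.5 fetal liver held 160 counts (11.4 CPM against 9.16), the E14.5 fetal liver 188 (8.43 CPM against 7.64) and the EDTA-decalcified marrow 9 (244 CPM against 189). In-tissue values here cover all tissue spots, without the limit of 1000 genes. T-cell counts off tissue were 27.8 to 50.5% of a section's T-cell counts in 5 sections, where off-tissue spots held 26.7 to 49.9% of UMIs, and 9.57% in the EDTA section, where they held 7.57%. The tables of the cross hold no off-tissue spots, so the same check was not made there.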

How the results depend on the processing

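With 2 sections per genotype, which section was left out moved most results. The genotype difference in the summed level ran from −0.36 to 0.83 in the spleens and from −0.0610 to 1.17 in the fetal livers (log2 CPM), and the number of members called in the spleens ran from 0 to 8. In the spleens the log2 fold change ran from −0.31 to 0.95 for Cd3d, −0.28 to 0.93 for Cd3e, −0.19 to 1.42 for Trac and −0.15 to 1.12 for Lck; in the fetal livers from −0.11 to 1.21 for Cd3d, −0.56 to 0.84 for Cd3e, −0.46 to 1.37 for Cd3g, −0.50 to 1.19 for Cd8a, −0.28 to 0.60 for Lck and −1.001 to 1.24 for Cd2. Spleen numbers are only numbers (same-numbered deviations r = 0.0394): with the replicate block 6 members passed, beside 16.1% of genes higher, and 4968 genes passed in all. DESeq2 called 1 member, B-cell spots 1 and the joint fit of 8 sections 0. Genes called in the spleens went from 3886 to 2128 in B-cell spots, 240 without knockout spleen 2 and 0 in the joint fit (1373 at an unadjusted p under 0.05). Cd3d and Cd3e turned to −0.0792 and −0.0759 with upper-quartile factors and to −0.0927 and −0.108 in B-cell spots. The tissue interaction turned under DESeq2 for Cd3e (−0.00544), Cd3g (−0.0663) and Cd2 (−0.0604), and with the litter term for Cd4 (0.00122). The litter block changed no member's call in the fetal livers.

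Thinning lowered clustering: the median Moran's I of the spleens went from 0.431 to 0.295 (2000 UMIs) and 0.220 (1000 UMIs), and that of the marrows from 0.106 to 0.00639 and 0.0295. The spleen median was 0.305 with neighbors up to 2 steps, 0.519 over all in-tissue spots and 0.538 on unlogged shares. Thinned, the fetal liver difference in clustering turned to 0.00354 and 0.00128, and the median r in the spleens went from −0.439 to −0.304 for erythroid and from −0.269 to −0.169 for red-pulp macrophage genes. The cause of these changes was not tested. Upper-quartile scaling moved the median of all genes in the fetal livers to 0.22.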

Other observations

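Innate lymphoid genes also followed the T-cell sum across spots of the 5 spleens, with r from 0.184 to 0.484, and the other T-cell transcription factors gave 0.273 to 0.652. Thymocyte and thymic epithelium genes gave −0.0190 to 0.0284. The T-cell sum was higher in the erythroid-poor than in the erythroid-rich spots of each spleen, at 1903 against 1191 CPM in the purchased spleen, 1096 against 653 and 2868 against 1187 CPM in the wild types and 1998 against 848 and 2480 against 869 CPM in the knockouts. In the spots with exocrine pancreas genes it was 1687.5 CPM in wild-type spleen 2, 414 CPM in knockout spleen 1 and 94.6 CPM in knockout spleen 2.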
